A study of Mus musculus with 16 samples.

Results

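The 10 genes described here encode proteins that cells make in response to viruses: *Ifit1*, *Ifit2*, *Ifit3* and *Ifit3b* of the IFIT family, *Rsad2* (viperin), *Cmpk2*, *Samd9l*, *Bst2* (tetherin), *Rtp4* and *Xaf1*. They were chosen by symbol, with earlier results of these data known. All 10 were found among the 55416 genes of the read-count table. Their transcripts were measured by bulk RNA-seq in S1 and S3 erythroblasts, the earlier and later of 2 stages of red cell precursor sorted on Ter119 and CD71, from E13.5 foetal livers. Each of 8 mouse embryos on a C57BL/6J background gave 1 S1 and 1 S3 library. There were 4 wild-type embryos (WT; 0 and 8 male, 1 and 5 female), 2 male embryos heterozygous for the *Nprl3* deletion (Het; 3 and 4) and 2 homozygous embryos (KO; 2 female, 9 male). The deletion removes the *Nprl3* promoter, leaves the α-globin enhancers in place and is carried by every cell of the embryo, so that a response of the erythroblasts and one of the cells around them cannot be told apart. *Nprl3* encodes a subunit of GATOR1, a restraint on the growth regulator mTORC1. The question for these genes was whether their transcripts differed between the genotypes at either stage, and how they changed from S1 to S3.

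Genes of this kind are switched on by interferons. An interferon bound to its receptor leads, through JAK kinases, to a transcription factor complex with IRF9 that binds the interferon-stimulated response element (ISRE) near gene starts. A second element of interferon responses is the gamma-activated site (GAS). IFIT proteins bind viral RNA that lacks the marks of host mRNA. Viperin makes a chain-terminating nucleotide from CTP, and *Cmpk2* encodes a nucleotide kinase of mitochondria whose gene lies beside *Rsad2*.

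On GRCm39, the build of the table, the 4 IFIT members lie in 1 cluster on chromosome 19. *Ifit2* spans bases 34528094 to 34553819, *Ifit3* 34560931 to 34566131, *Ifit3b* 34585370 to 34590801 and *Ifit1* 34618271 to 34627409, all on the plus strand, and the paralogues *Ifit1bl1* and *Ifit1bl2* lie between them on the minus strand. *Rsad2* (chromosome 12, 26492745 to 26506451, minus strand) and *Cmpk2* (26519203 to 26529836, plus strand) point away from each other across a gap of 12751 bases. *Samd9l* (chromosome 6, 3372257 to 3399572) and *Bst2* (chromosome 8, 71986899 to 71990100) are on the minus strand, *Rtp4* (chromosome 16, 23339041 to 23432972) and *Xaf1* (chromosome 11, 72192455 to 72204559) on the plus strand. *Ifit3* and *Ifit3b* shared 26.6% and 27.2% of their 100-base stretches with each other, and since read pairs that mapped to several places were not counted, the counts of both are uncertain. *Rtp4* shared 296 exon bases with *Gm45338*, where reads were counted for neither gene.

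The stretch from 250 bases before to 50 bases after each gene's start was searched on both strands for GAAANNGAAA, the core of the ISRE, and for TTCNNNGAA, the GAS. The start is that of the gene's canonical transcript in the GENCODE annotation on GRCm39, and for *Rtp4* this is base 23428646, inside the wider bounds that the count table gives the gene. The ISRE letters stood in 6 of the 10 member promoters and in 835 of all 21770 protein-coding promoters (3.84%). The GAS letters stood in 2 member promoters, those of *Ifit2* and *Bst2*, and in 1919 of all (8.81%). Of the 35 other interferon-stimulated genes listed, 14 had the ISRE letters. The parts of the 6 promoters that hold the letters are shown because the members with them did not move alike. Capitals mark ISRE matches on either strand, read 5′ to 3′ along the gene.
Rsad2 promoter, chr12:26506547-26506586, - strand: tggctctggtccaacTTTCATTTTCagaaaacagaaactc
Ifit1 promoter, chr19:34618170-34618228, + strand: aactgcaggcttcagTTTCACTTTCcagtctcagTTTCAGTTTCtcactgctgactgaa
Ifit3 promoter, chr19:34560758-34560831, + strand: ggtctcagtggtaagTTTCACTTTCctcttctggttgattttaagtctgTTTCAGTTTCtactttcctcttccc
Ifit3b promoter, chr19:34585154-34585227, + strand: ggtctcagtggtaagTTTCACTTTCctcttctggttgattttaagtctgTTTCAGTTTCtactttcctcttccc
Bst2 promoter, chr8:71990216-71990261, - strand: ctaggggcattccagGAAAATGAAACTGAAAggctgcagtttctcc
Rtp4 promoter, chr16:23428580-23428645, + strand: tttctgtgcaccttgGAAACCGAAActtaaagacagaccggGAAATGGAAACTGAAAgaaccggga
The *Ifit3* and *Ifit3b* stretches were identical, and *Ifit1* carried the same 2 words, TTTCACTTTC and TTTCAGTTTC, closer together. In *Bst2* and *Rtp4* the matches ran into each other, so that the capitals of *Bst2* hold 2 overlapping matches and the second block of *Rtp4* holds 2. The GAS letters of *Bst2* overlap the first of its ISRE matches. *Rtp4* has a further match across its start that is not shown. No ISRE letters were found in these windows of *Ifit2*, *Cmpk2*, *Samd9l* and *Xaf1*. A match is a string of letters and not a measured binding site.

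The libraries held 20666044 to 37609502 counted read pairs. At S1, *Nprl3* was at 21 to 33.8 CPM (counts scaled to a common library size by TMM) in WT, 12.4 and 12.6 in Het, and 0.309 and 0.656 in KO, as the labels say. At S3 it was 143 to 214 CPM in WT, 126 and 153 in Het, and 110 and 117 in KO, and the KO difference was not past the threshold (log2 fold change −0.55, adjusted p = 0.381, edgeR). In erythroid cells the α-globin enhancers also start spliced, polyadenylated RNA that runs through *Nprl3*, per the study's text, and counts per gene cannot separate it from mRNA of the *Nprl3* promoter, so the S3 counts do not check the deletion. Erythroblast markers, globins among them, were high in S3 libraries, with a summed level of 122000 to 159000 CPM over 9 genes, against 1790 to 7850 CPM at S1. Neutrophil markers, at 120 to 1650 CPM over 10 genes at S1, fell to between 1.11 and 14.8 CPM at S3. S1 libraries thus held transcripts typical of other blood cells in unequal amounts.

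In WT embryos the 10 transcripts differed widely in level. Per length (RPKM, the CPM divided by exon length in kilobases, mean ± SD, n = 4), *Bst2* was the highest at S1 (24.9 ± 11.8 RPKM), followed by *Cmpk2* (8.15 ± 0.813 RPKM). *Ifit2* (1.76 ± 0.488 RPKM) and *Rtp4* (1.27 ± 1.00 RPKM) came next, and their ranges over embryos could not be separated. *Ifit1* (0.0673 ± 0.0439 RPKM), *Rsad2* (0.0378 ± 0.0322 RPKM) and *Ifit3b* were the lowest at S1, also within each other's spread. *Rsad2* had 10, 11, 4 and 0 reads in the S1 libraries of WT embryos 0, 1, 5 and 8, where 0 reads allow up to 0.0638 CPM. At S3 the order changed. *Cmpk2* led (15.9 ± 2.52 RPKM), then *Ifit1* (3.84 ± 1.75 RPKM), *Rsad2* (3.53 ± 1.94 RPKM) and *Bst2* (2.94 ± 1.5 RPKM), the last 3 within each other's spread, and *Samd9l* (0.061 ± 0.0161 RPKM) and *Ifit3b* (0.0989 ± 0.142 RPKM) were the lowest, within each other's spread.

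Between S1 and S3 in WT, 3 members rose and 3 fell. *Rsad2* rose from at most 0.3 CPM in any WT S1 library to 7.11 to 26.9 CPM at S3 (log2 fold change 6.58 ± 0.72, SE, adjusted p = 2.13e-05, edgeR quasi-likelihood test). *Ifit1*, whose protein binds incompletely capped RNA, rose from 0.0599 to 0.281 CPM at S1 to 5.55 to 15 CPM at S3 (5.77 ± 0.52, adjusted p = 6.46e-06, edgeR). *Cmpk2* rose less, from 29.7 to 37.8 CPM to 51.3 to 74.0 CPM (0.97 ± 0.16, adjusted p = 0.000336, edgeR). In all 3 every S3 library was above every S1 library, as in 28.6% of all genes. *Samd9l*, a brake on viral translation and on cell growth, fell by 3.35 on the log2 scale, from 1.89 to 6.25 CPM to 0.229 to 0.42 CPM (SE 0.47, adjusted p = 0.000124, edgeR). *Bst2*, which holds budding virions at the cell surface, fell by 3.06, from 8.98 to 31.0 CPM to 0.651 to 3.63 CPM (SE 0.52, adjusted p = 0.000426, edgeR). *Ifit2* fell by 0.97, from 5.36 to 9.68 CPM to 2.97 to 4.32 CPM (SE 0.24, adjusted p = 0.00441, edgeR). *Ifit3* (1.32 ± 0.69), *Rtp4* (−0.51 ± 0.76) and *Xaf1* (−0.24 ± 0.83) did not pass the test. *Ifit3* did without WT embryo 8 (1.62, adjusted p = 0.00626, edgeR) and with the newer quasi-likelihood method of edgeR.

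Change was the rule between these stages, so the count by itself does not set the members apart: 30.6% of the 13514 genes tested were higher at S3 and 35% lower, and in 32% every S3 library was below every S1 library, as for the 3 members that fell. The cluster genes went different ways in the same embryos, *Ifit1* up, *Ifit2* down and *Ifit3* overlapping. The 6 calls were also made with the embryo as a replicate block. At S1, granulocyte and other marker genes, and at S3 globin RNA, at 10.8 to 11.8% of counts in WT against 0.184 to 1.07% at S1, moved with stage, and their part in these changes was not tested. In a bulk sample, fewer cells of a type and less RNA per cell cannot be told apart.

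**Figure D1:**
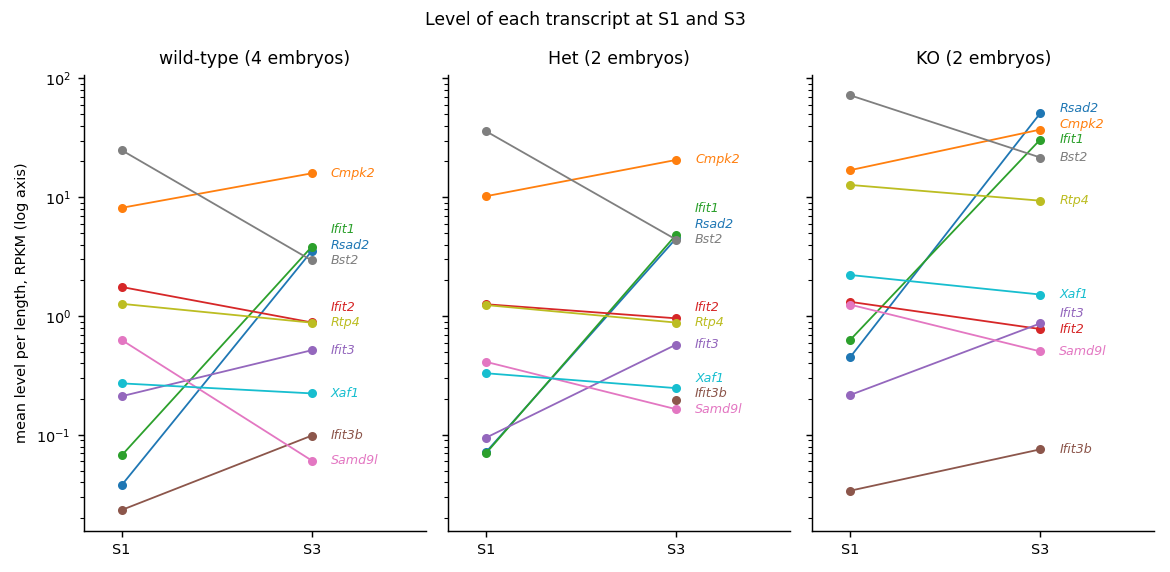
Mean level per length of each member at S1 and S3 (RPKM, log axis) in wild-type (4 embryos), Het (2) and KO (2). In wild-type, Rsad2 and Ifit1 climb steeply to 3.53 and 3.84 RPKM while Bst2 drops from 24.9 to 2.94 RPKM, and in KO S3 Rsad2 reaches 51.0 RPKM; Ifit3b had no reads in Het at S1 and has no line there.

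At S3, 7 of the 9 members that could be tested had higher values in both KO libraries than in every WT library, and 4 of them were called. These 4 were *Rsad2*, *Samd9l*, *Cmpk2* and *Ifit1*, with fold differences between 2.36 and 14.5. None was called lower, and 7 had an unadjusted p under 0.05. Across all 11804 genes tested, 0.457% were called higher and 0.102% lower, 8.52% had an unadjusted p under 0.05, and 9.18% had both KO libraries above all WT libraries. *Ifit3b* was too low to be tested. *Ifit2* and *Ifit3* overlapped between the genotypes.

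*Rsad2* had 15.2, 7.11, 26.9 and 12 CPM in the S3 libraries of WT embryos 0, 1, 5 and 8, and 284 and 158 CPM in those of KO embryos 2 and 9. The lower KO library was thus several times above the highest WT library. The log2 fold change was 3.86 ± 0.44 (adjusted p = 0.0153, edgeR), the largest among the members tested. Its neighbour *Cmpk2* had 72.8, 51.3, 74.0 and 66.7 CPM in WT and 166 and 143 CPM in KO. The groups did not overlap and the spread within each was small, and the log2 fold change of 1.24 ± 0.17 (adjusted p = 0.0242, edgeR) was the smallest of the 4 called. With the larger difference of *Rsad2*, the order of the pair turned: per length, *Cmpk2* led in WT S3 (15.9 against 3.53 RPKM), and *Rsad2* led in KO S3 (51.0 ± 20.6 against 37.1 ± 4.02 RPKM, n = 2), where the SDs of the pair overlapped.

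*Ifit1* had 13.3, 5.55, 15 and 6.94 CPM in WT S3 and 122 and 40.7 CPM in KO S3. Both KO libraries were above all WT libraries, but they differed from each other by 3.00-fold, and the log2 fold change was 3.00 ± 0.47 (adjusted p = 0.0392, edgeR). *Samd9l* had 0.386, 0.229, 0.42 and 0.289 CPM in WT and 3.11 and 2.37 CPM in KO, a log2 fold change of 3.02 ± 0.39 (adjusted p = 0.0216, edgeR). The WT values of *Samd9l* rest on 4 to 11 reads a library, and those of KO on 42 and 49.

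*Bst2*, *Rtp4* and *Xaf1* had differences of like size that did not pass the test, and in each of them the libraries of a genotype were spread widely. *Bst2* had 3.30, 3.03, 3.63 and 0.651 CPM in WT S3 and 30.0 and 9.03 CPM in KO (log2 fold change 2.86 ± 0.56, adjusted p = 0.0889, edgeR). *Rtp4*, a chaperone of membrane receptors that also restricts viruses, had 2.02, 1.42, 3.86 and 0.217 CPM in WT and 32.9 and 7.05 CPM in KO (3.36 ± 0.74, adjusted p = 0.128, edgeR). *Xaf1*, which opposes the apoptosis inhibitor XIAP, had 1.11, 0.413, 2.60 and 0.0723 CPM in WT and 10.2 and 4.01 CPM in KO (2.69 ± 0.79, adjusted p = 0.287, edgeR). WT embryo 8 was the lowest in all 3, with 9, 3 and 1 reads, and it was the shallowest library at 20666044 read pairs. Embryo 8 was the lowest WT embryo in all 3 at S1 too, where its library held 32131347 read pairs. The part of depth was not tested.

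A difference like that of *Ifit1* was not seen in *Ifit2*, and *Ifit3* and *Ifit3b* had too few reads to tell. *Ifit2* had 3.64, 2.98, 4.32 and 2.97 CPM in WT S3 and 3.30 and 2.82 CPM in KO, a log2 fold change of −0.18 ± 0.27 (adjusted p = 0.944, edgeR). *Ifit3* had 1.33, 1.05, 1.22 and 0 CPM in WT, where 0 reads allow up to 0.217 CPM, and 1.90 and 1.13 CPM in KO, with a log2 fold change of 0.71 ± 0.81 (adjusted p = 0.917, edgeR). *Ifit3b* had 14, 0, 5 and 0 reads in WT, 9 and 5 in Het, and 3 and 2 in KO. The paralogues were also too low to be tested. *Ifit1bl1* had 1, 2, 3 and 1 reads in WT S3 and 5 and 19 in KO S3. *Ifit1bl2* had 13, 2, 4 and 3 reads in WT S3 and 3 and 11 in KO S3. *Ifit3* and *Ifit1* carry the same ISRE words, shown above, and *Ifit2* none. Among members without ISRE letters in the window, *Cmpk2* and *Samd9l* were called higher. A difference between *Ifit1* and the others was not tested as such.

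**Figure D2:**
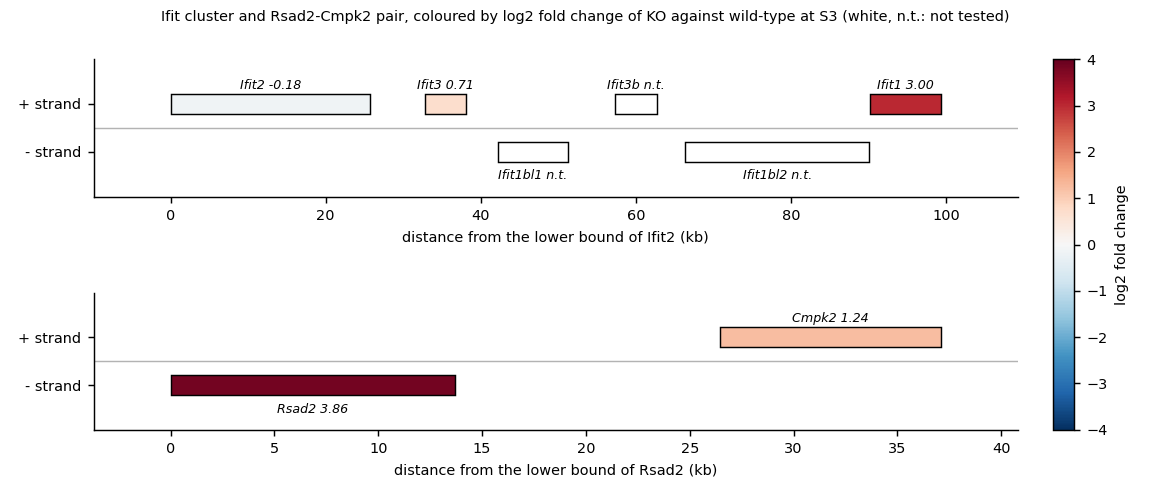
Gene bounds of the Ifit cluster and the Rsad2-Cmpk2 pair drawn to scale as distance in kb, and coloured and labelled by the S3 difference between KO and wild-type (log2 fold change). Ifit1 stands at 3.00 at one end of the cluster and Ifit2 at −0.18 at the other, and Rsad2 at 3.86 lies beside Cmpk2 at 1.24.

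The median log2 fold change of the 9 members was 2.86 at S3, beside 0.00717 over all genes tested. The calls depended on single embryos. Without WT embryo 0 or WT embryo 8 no member was called, and 11 genes of any kind were. Without WT embryo 1 *Rsad2* and *Cmpk2* were called, and without WT embryo 5 *Rsad2* and *Samd9l*. Leaving out a KO embryo leaves 1 KO library, assumed to vary like WT, so calls of those fits are not given. With upper-quartile scaling *Ifit1* was lost. DESeq2 called 5 members, adding *Bst2*, beside 1.22% of all genes called higher. With sex in the edgeR fit 7 were called, adding *Bst2*, *Rtp4* and *Xaf1*, beside 2.41%. With 1 WT embryo left out, 0.0753% to 0.342% of all genes were called higher. The log2 fold change of *Rsad2* was between 3.37 and 4.27 over the fits that left out an embryo.

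At S1 the same 7 members had both KO libraries above all WT libraries, and none passed the adjusted test. No gene at all was called higher at S1 (0% of 14039) and *Nprl3* was the only one called lower (0.00712%), while 6.57% of genes had KO libraries all above WT. Of the 9 members tested 6 had an unadjusted p under 0.05, as had 2.53% of all genes. *Rsad2* had 0.3, 0.258, 0.0975 and 0 CPM in WT embryos 0, 1, 5 and 8 and 1.76 and 2.15 CPM in KO embryos 2 and 9 (log2 fold change 3.60 ± 0.83, adjusted p = 1.00, edgeR). *Ifit1* had 0.0599, 0.281, 0.0975 and 0.277 CPM in WT and 2.43 and 0.923 CPM in KO (3.18 ± 0.63, adjusted p = 0.658, edgeR). Both were far below their S3 levels in every genotype. *Cmpk2* had 29.7, 33.2, 37.8 and 34.9 CPM in WT and 84.8 and 56.1 CPM in KO (1.06 ± 0.20, adjusted p = 0.642, edgeR).

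*Rtp4* had 1.05, 4.33, 4.75 and 0.681 CPM in WT S1 and 45.5 and 8.47 CPM in KO S1, where KO embryo 2 was 5.37-fold above KO embryo 9 (log2 fold change 3.30 ± 0.86). *Xaf1* had 0.599, 1.94, 2.24 and 0.319 CPM in WT and 16.4 and 4.41 CPM in KO (3.01 ± 0.77). *Bst2* had 19, 31.0, 31.0 and 8.98 CPM in WT and 83.5 and 46.7 CPM in KO (1.53 ± 0.48). In these 3, WT embryo 8 was again the lowest and KO embryo 2 again the highest. *Samd9l* had 1.89, 6.25, 3.12 and 2.45 CPM in WT and 7.06 and 6.48 CPM in KO (0.98 ± 0.46), so that WT embryo 1 nearly reached the KO libraries. *Ifit3* had 0.285 CPM in KO embryo 2, just under the WT range of 0.298 to 0.562 CPM, and 0.472 CPM in KO embryo 9, inside it (0.05 ± 0.49). *Ifit2*, at 5.18 and 5.19 CPM in KO, was just under the WT range of 5.36 to 9.68 CPM (−0.40 ± 0.29, adjusted p = 1.00, edgeR).

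The call at S1 turned on the tool. DESeq2 called 5 members higher (*Ifit1*, *Rsad2*, *Cmpk2*, *Rtp4* and *Xaf1*), beside 0.264% of all genes. With sex as a covariate DESeq2 called 6, beside 0.833%, and edgeR called *Rtp4* and *Xaf1*, beside 0.128%. An exact permutation test of 4 against 2 libraries for 1 gene cannot give a p below 0.0667.

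**Figure D3:**
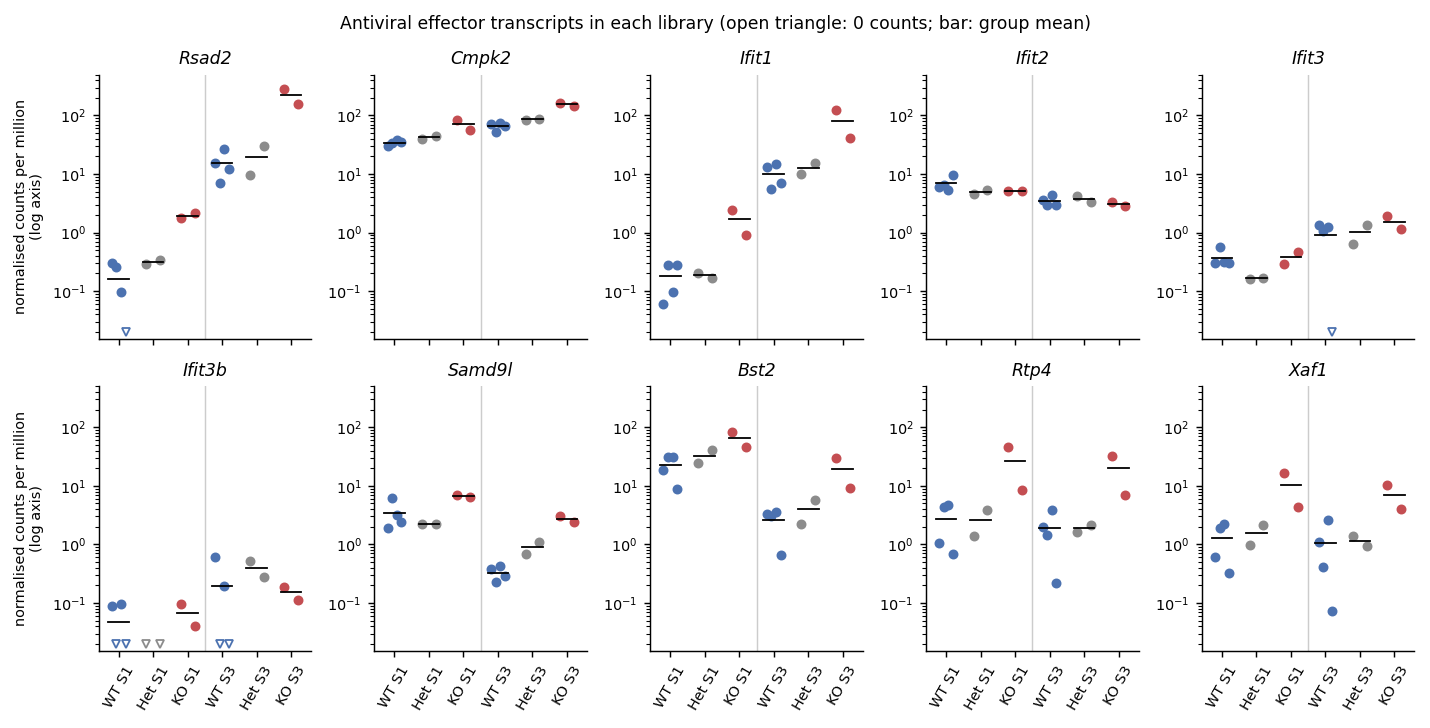
CPM of each member in all 16 libraries (log axis), with 1 point per library, wild-type in blue, Het in grey and KO in red, bars at group means and open triangles for 0 reads. For Rsad2, Cmpk2, Ifit1, Samd9l, Bst2, Rtp4 and Xaf1 both KO points stand above all wild-type points at both stages, while Ifit2 and Ifit3 do not show this.

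Whether the KO difference itself changed between the stages was tested as an interaction, and no member passed (0 of 9 with edgeR and with DESeq2, beside 0.00742% of 13485 genes higher, which was *Nprl3* alone, and 0% lower). *Samd9l* had the largest change, from a log2 fold change of 0.98 at S1 to 3.02 at S3 (difference 2.03 ± 0.64, unadjusted p = 0.00796, adjusted p = 1.00, edgeR). It was the only member with an unadjusted p under 0.05, as 3.11% of all genes had. Its WT level fell from S1 to S3 by 3.35 on the log2 scale, while in KO its mean went from 6.77 to 2.74 CPM. For *Rsad2* the difference between stages was 0.23 ± 1.08, and for *Ifit1* −0.15 ± 0.75, intervals too wide to separate equal effects from unequal ones. *Bst2* had 1.31 ± 0.86.

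Both KO embryos were measured at both stages. At S3 the 9 members tested were higher in KO embryo 2 than in KO embryo 9, by 1.16-fold for *Cmpk2* to 4.67-fold for *Rtp4*, as were 49.9% of all genes tested, and at S1 6 of 9 were, beside 51.9%. This describes 1 library against 1 at each stage. The KO embryos also differed in sex, so sex and embryo cannot be told apart within KO.

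Het libraries were then set against WT. At neither stage was any member called, nor any gene of the 11746 tested at S3 or the 13818 tested at S1 (0%). In edgeR, 2 members at S3 and none at S1 had an unadjusted p under 0.05, beside 3.18% and 4.26% of all genes. With DESeq2 no member was called either. *Rsad2* had 9.49 and 29.5 CPM in the S3 libraries of Het embryos 3 and 4, around the WT range, and *Ifit1* 10.1 and 15.6 CPM. *Rtp4* had 1.63 and 2.13 CPM, and *Xaf1* 1.4 and 0.931 CPM, both inside the WT range. *Samd9l* came highest relative to WT, with 0.699 and 1.09 CPM against at most 0.42 in WT (log2 fold change 1.39 ± 0.44, unadjusted p = 0.0112, adjusted p = 0.901, edgeR), from 12 and 20 reads.

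*Cmpk2* was the one member whose Het libraries were above all WT libraries at both stages, with 83.3 and 88.2 CPM at S3 (0.36 ± 0.16, adjusted p = 0.901, edgeR) and 40.3 and 44.7 CPM at S1 (0.32 ± 0.17, adjusted p = 0.905, edgeR). Of all genes, 6.97% were so at S3 and 10.6% at S1. At S1 the *Bst2* values of 24.2 and 40.9 CPM, the *Rtp4* values of 1.39 and 3.91 CPM and the *Xaf1* values of 0.960 and 2.15 CPM lay within the range of the 4 WT embryos or, for 1 *Bst2* library, above it. In each of these 3 genes both Het embryos, which are male, were above both male WT embryos. With sex as a covariate in edgeR the Het difference at S1 was 1.61 for *Rtp4* (−0.05 without it), 1.77 for *Xaf1* (0.27) and 1.21 for *Bst2* (0.52), and no member was called at either stage, beside 1.32% of all genes called higher at S1 and 8.84% at S3. The sex term rests on the WT embryos, whose sexes also differ in make-up at S1, and these cannot be told apart. *Ifit3* was lower in both Het S1 libraries, at 0.163 and 0.167 CPM or 8 and 6 reads (−1.16 ± 0.50, adjusted p = 0.905, edgeR). *Rsad2* and *Ifit1* were too low at S1 in these libraries to be tested.

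**Figure D4:**
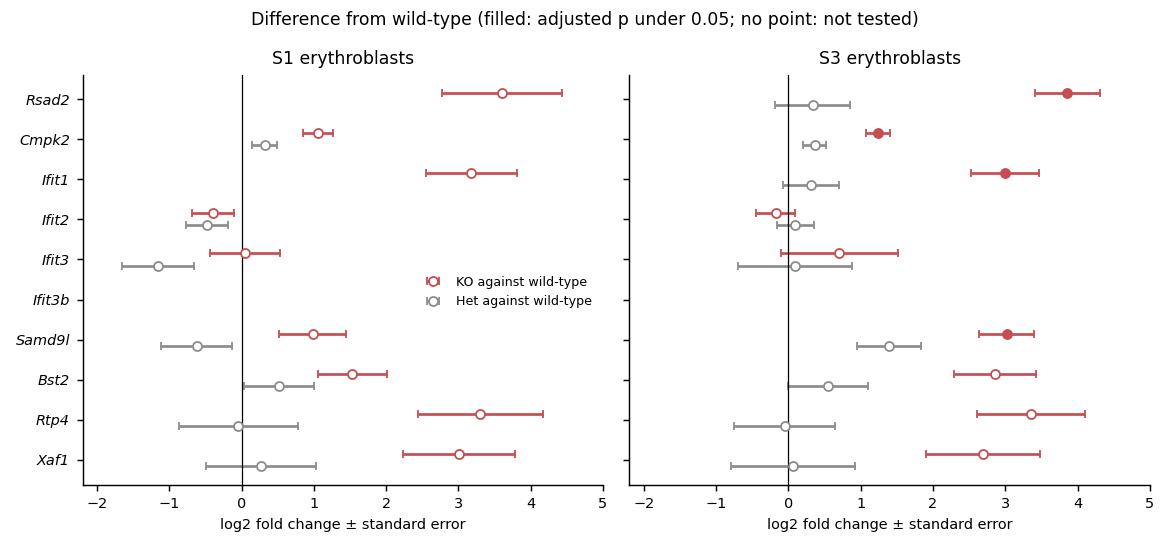
Log2 fold change with standard error of each member in KO (red) and Het (grey) against wild-type, at S1 and S3, filled where the adjusted p was under 0.05. The filled points are Rsad2, Cmpk2, Ifit1 and Samd9l in KO at S3, and the Het points lie between −1.16 and 1.39.

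KO libraries were also set against Het. At S3, 7 of 9 members had both KO libraries above both Het libraries, as had 20.3% of all genes, and no member was called with edgeR, beside 0.141% of genes called higher and 0.0176% lower. *Rsad2* came closest (log2 fold change 3.51 ± 0.52, adjusted p = 0.061), then *Cmpk2* (0.86 ± 0.15, adjusted p = 0.0924) and *Ifit1* (2.67 ± 0.49, adjusted p = 0.101). *Ifit2* was lower in both KO libraries (−0.28 ± 0.30). At S1, 8 of 9 members were above Het in both KO libraries, as were 17.4% of all genes, with no member called and 0.0217% of genes called higher, as many as lower. *Rsad2* had 0.286 and 0.335 CPM in Het against 1.76 and 2.15 in KO (2.67 ± 0.40, adjusted p = 0.0793, edgeR), and *Samd9l* 2.23 and 2.26 CPM against 7.06 and 6.48 (1.61 ± 0.24, adjusted p = 0.0793, edgeR). At each stage 7 members had an unadjusted p under 0.05, beside 10.6% of all genes at S3 and 6.67% at S1, and DESeq2 called 4 at S3 and 3 at S1, beside 1.05% and 0.376% of all genes called higher. These comparisons use the same KO libraries as those against WT, and with 2 libraries a group 1 library decides the count: without either KO embryo 7 members were called at S3, and 6 or 7 at S1. Calls over all genes rose in these fits too, to 12.1% called higher without embryo 2 and 5.04% without embryo 9 at S3, and to 8.31% and 1.14% at S1.

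The remainder of the interferon system was read from lists of genes, also chosen with earlier results of these data known. None of 10 interferon ligand genes had enough reads to be tested at either stage. At S3 they had no reads in any library, and at S1 their summed level was at most 0.106 CPM. Of 15 genes for interferon receptors and signalling, 14 were tested at S3 and 4 were called higher, none lower. They included *Irf9* (log2 fold change 1.39 ± 0.22, adjusted p = 0.0392, edgeR), of the complex that binds the ISRE, and *Irf7* (2.81 ± 0.45, adjusted p = 0.0419, edgeR), which drives interferon genes. The list's median of 0.12 was near that of all genes. Of 35 other interferon-stimulated genes 27 were tested and 12 were called higher, none lower, with a median of 1.94. *Isg15*, a ubiquitin-like modifier, had the smallest p (4.70 ± 0.49, adjusted p = 0.0133, edgeR), followed by the RNA sensor gene *Ifih1* (1.6 ± 0.19, adjusted p = 0.0153, edgeR) and *Herc6* (1.53 ± 0.19, adjusted p = 0.0189, edgeR), which encodes the ligase that joins ISG15 to proteins. These counts, for signalling and other stimulated genes in turn, also rested on single embryos. Without WT embryo 8 no gene of either list was called, and without WT embryo 0 none and 1. Without WT embryo 1 they were 1 and 2, and without WT embryo 5 they stayed at 4 and 12.

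At S1 no gene of either list was called with edgeR, while DESeq2 called 3 and 13, beside 0.264% of all genes called higher. All 32 other interferon-stimulated genes tested had log2 fold changes above 0, with a median of 1.51, beside 48.9% of all genes. In edgeR 22 of the 32 had an unadjusted p under 0.05, beside 2.53% of all genes. In Het the median of this list was 0.22 at S3 and 0.09 at S1, with 0 calls. The members' median was 1.53 in KO at S1, and 0.32 at S3 and −0.05 at S1 in Het.

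**Figure D5:**
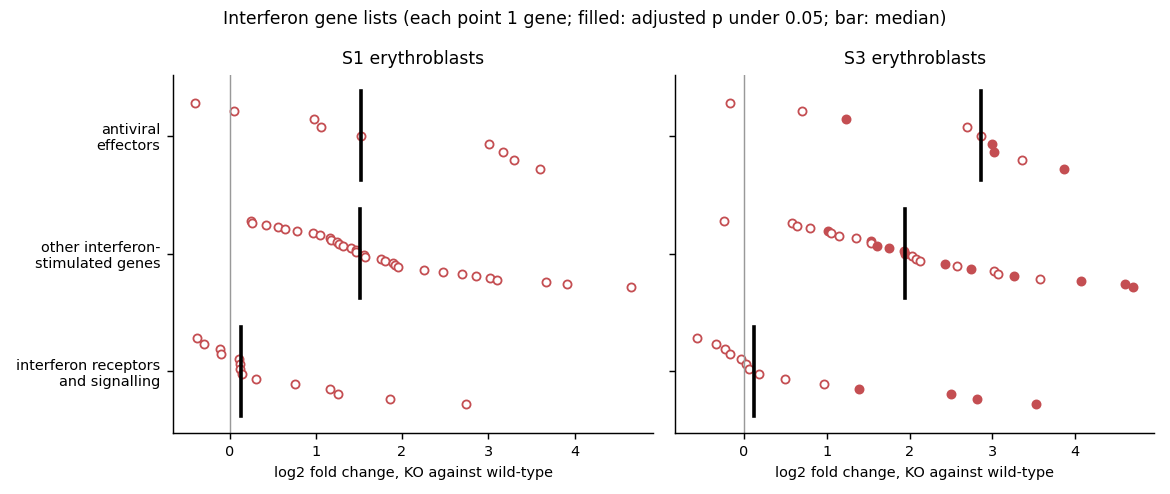
Difference between KO and wild-type (log2 fold change) for each tested gene of 3 lists at S1 and S3, filled where the adjusted p was under 0.05, with black bars at list medians. The medians at S3 are 2.86 for the antiviral effectors, 1.94 for other interferon-stimulated genes and 0.12 for receptors and signalling, and there are no filled points at S1.

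Across the 16 libraries, each expressed as log2 CPM less the WT mean of its stage, most members followed each other. The correlation of a member with the mean of the others, which share embryos and libraries, was highest for *Rtp4* (r = 0.948), *Xaf1* (0.943) and *Bst2* (0.939). It was 0.853 for *Cmpk2*, 0.817 for *Ifit1*, 0.798 for *Samd9l* and 0.739 for *Rsad2*, lower for *Ifit3* (0.516) and below 0 for *Ifit2* (−0.187). Without the KO libraries (12 libraries) it was 0.896, 0.9 and 0.875 for *Rtp4*, *Xaf1* and *Bst2*, 0.651 for *Ifit3*, 0.53 for *Samd9l*, 0.417 for *Cmpk2*, 0.385 for *Ifit1*, 0.293 for *Rsad2* and 0.0842 for *Ifit2*. Averaged over the 9 tested members, KO libraries stood at 3.04 and 2.01 at S3 and 2.26 and 1.56 at S1, Het libraries between −0.0249 and 0.948, and WT libraries between −1.39 and 0.956. Among the WT libraries, embryo 8 was the lowest at both stages (−0.688 at S1 and −1.39 at S3).

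The 5 other genes whose pattern over the 16 libraries was most like the members' mean, among 11325 genes, were *Gbp7* (r = 0.967), *Usp18* (0.966), *Tgtp2* (0.965), *Oas1a* (0.960) and *Igtp* (0.952). *Gbp7*, *Tgtp2* and *Igtp* encode interferon-inducible GTPases, *Usp18* the protease that removes ISG15, and *Oas1a* a sensor of double-stranded RNA. The members' mean is high in the KO libraries, so this choice largely sets the genes' KO difference as well. Over the 12 libraries without KO the 5 had r between 0.87 and 0.923. Of 14 neighbouring protein-coding genes on the chromosome only 2 were tested at S3, beside *Bst2* and on the *Ifit2* side of the IFIT cluster, and 4 at S1. Neither was called at S3, with an unadjusted p under 0.05 for 1, but both had the 2 KO libraries above all WT libraries. The genes next to *Rsad2*, *Cmpk2*, *Samd9l* and *Ifit1* had too few reads to be tested at S3. At S1 none of the 4 was called or had an unadjusted p under 0.05, and 1 had KO above all WT libraries.

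Cell type markers were read beside the S3 result, because several members are also made by macrophages and dendritic cells. The 9 erythroblast markers summed to 122000 and 123000 CPM in KO S3, below the 135000 to 159000 of WT and the 141000 and 155000 of Het, and all 9 had log2 fold changes below 0, with a median of −0.23 and none called. The 15 macrophage markers summed to 53.3 to 106 CPM in WT S3, 53.8 to 76.2 in Het and 26 to 38.4 in KO, lower in KO, and all 13 tested had log2 fold changes below 0, with 3 called. Hepatoblast markers summed to 212 to 950 CPM in WT S3 and 99.4 to 257 in KO, and all 10 were below 0, with none called. The 8 markers of plasmacytoid dendritic cells summed to 5.28 to 8.10 CPM in WT S3 and 10.2 to 12.1 in KO, but only 2 of them could be tested and neither was called. Most of the sum was *Tcf4*, at 3.62 to 5.65 CPM in WT and 9.13 to 11.2 in KO, while *Irf8* was at 1.19 to 2.33 CPM in WT and 0.79 to 1.01 in KO, and the defining gene *Siglech* had no reads in any S3 library. Lymphoid markers were at most 0.6 CPM in S3. Neutrophil markers reached 14.8 CPM in 1 KO S3 library and at most 4.85 in WT. Megakaryocyte markers summed to 41.3 to 94.2 CPM in WT S3 and 47.8 to 117 in KO, and 7 of the 8 tested had log2 fold changes above 0, with a median of 0.78 and none called. The part of these cells in the S3 values was not tested.

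Markers were also read at S1, where none of any list was called in KO against WT. Neutrophil markers summed to 120 to 1280 CPM in WT, 1520 and 1530 in Het, and 1570 and 1650 in KO, and all 10 were above 0 in KO with none called. Most of the sum was *Mpo*, *Elane*, *Prtn3* and *Ctsg*, which granulocyte precursors make, and *Ltf*, *Camp*, *Ngp* and *Lcn2* of later neutrophils were at most 6.47 CPM. The other later genes of the list reached more, *S100a8* 3.3 to 60.1 CPM in WT, 46.4 to 53.2 in Het and 27.8 to 28.4 in KO, and *S100a9* at most 20.6 CPM. The WT embryos fell apart in this sum, with 196 and 120 CPM in embryos 0 and 8 and 1280 and 1100 in embryos 1 and 5, while erythroblast markers summed to 7610 and 7850 CPM in the former and 2310 and 3100 in the latter. Embryos 0 and 8, the WT males, were also the lower WT ones for *Rtp4*, *Xaf1* and *Bst2*, so sex and this difference in make-up cannot be told apart among them. With both left out, a choice made after the data were seen, the KO difference at S1 was 2.53 (log2) for *Rtp4*, 2.27 for *Xaf1*, 1.04 for *Bst2* and 0.50 for *Samd9l*, and no member was called. It was 3.41 for *Rsad2*, 3.08 for *Ifit1* and 0.96 for *Cmpk2*. Macrophage markers summed to 33.0 to 56.3 CPM in WT S1 and 68.1 to 69.4 in KO, with 4 of 13 above 0 and 9 below. In KO most of the sum was *Lyz2*, at 45.3 to 51.9 CPM, against 9.89 to 37.3 CPM in WT. Hepatoblast markers summed to 59.7 to 348 CPM in WT and 35 and 175 in KO, with 9 of 10 below 0, and erythroblast markers to 1790 and 3050 CPM in KO, with 8 of 9 below 0 (median −0.56), none of either called. Megakaryocyte markers summed to 34.9 to 68.3 CPM in WT and 32.4 and 84 in KO, and those of plasmacytoid dendritic cells to 30.7 to 55.8 and 38.9 to 42.1 CPM, both overlapping. Lymphoid markers ran from 4.02 to 44.9 CPM in WT and 47.7 to 48.7 in KO. The part of these cells in the S1 values of the members was not tested.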

How the data were processed

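S1 and S3 erythroblasts were sorted from 8 foetal livers, RNA was amplified, and polyA libraries were sequenced as read pairs. The submitters' titles and the study's methods give sorted foetal liver cells, while the source fields of the labels name an ES cell line, and the former were used. The authors mapped reads to mm39 with STAR 2.7.9 and deposited raw counts per gene made with featureCounts 1.6.4 on the Ensembl annotation, unstranded and leaving out multi-mapping read pairs and those within more than 1 gene. Of 20 library columns 16 were used, and 4 matched no sample used here.

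Counts were tested in edgeR 4.0.16 (R 4.3.3) with the quasi-likelihood test, two-sided, for each stage and pair of genotypes, over genes with a mean TMM-normalised count above 10, and adjusted by Benjamini-Hochberg over all genes tested with a threshold of 0.05. The SE was the log2 fold change divided by the square root of F. The edgeR and DESeq2 fits were tested on simulated counts, and the other steps were not. Of 55416 gene IDs 54749 had a symbol in the GENCODE annotation. CPM and RPKM used TMM factors over all 16 libraries, and a pseudocount of 0.5 reads for log values in the correlations. The 16 libraries are from separate embryos within a group, and no pair was duplicated. S1 and S3 libraries of an embryo are from the same animal, and the deviations of the 2 libraries from their group means correlated over 13485 genes at 0.062, 0.19, 0.28 and 0.27 in WT, 0.03 in Het and 0.34 in KO. The limits for 0 reads (3 reads) cover counting error only. DESeq2 1.42.0, sex as a covariate, other filters and scalings, the embryo block and leaving out each embryo were alternatives.

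The members and gene lists were chosen with earlier results of these data known. All 10 members were named in every comparison, and of the other lists at most the 3 genes of smallest p in KO against WT at S3. Neighbouring genes were to be named only where called in KO against WT. The paralogues *Ifit1bl1* and *Ifit1bl2* were named for their position, and their reads were added after they were seen. The 5 genes most like the members' mean were named with *Nprl3*. *Siglech*, *Tcf4*, *Irf8*, *Lyz2*, *Gm45338* and the granulocyte genes were named after their values were seen. Values of 1 further listed gene are not reported here.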

Additional observations from a re-analysis of the deposited data

Results flagged for a closer look

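*Ifit3* in WT S1 was at 0.562 CPM in embryo 1, 24 reads, while the other 3 embryos were within 0.298 to 0.317 CPM, and this gap was larger than Dixon's 95% critical value for 4 samples. It was the only one of 20 such sets of 4 WT libraries (10 members at 2 stages) in which a library stood apart in this way, and chance alone gives about 1 in 20. The KO difference of *Ifit3* at S1 was 0.33 (log2) without embryo 1 and 0.05 with it.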

How the results depend on the processing

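For KO against WT the 7 members that stood above all WT libraries kept their direction in each of the alternatives tried at both stages, and *Ifit2* stayed below 0. Counts of members called moved more. At S3 the 4 calls became 7 with sex as a covariate in edgeR and 7 without the filter. They became 0 without WT embryo 0 or 8 and 2 without WT embryo 1 or 5. At S1 the 0 calls became 5 with DESeq2, 6 with DESeq2 and sex, and 2 with edgeR and sex. For KO against Het, where the lone library of a group is assumed to vary like the other group, the 0 calls ranged from 0 to 7 at both stages with 1 embryo left out. They became 4 with DESeq2, 1 with the newer quasi-likelihood method and 7 without the filter at S3, and 3 with DESeq2, 7 without the filter and 1 with TMM factors from all genes, an alternative added after the data were seen, at S1. Shares of all genes called are not given here for the fits without the filter, with the newer method or with TMM factors from all genes. Those counts therefore do not set the members apart. The cause of these shifts was not tested.

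Small differences changed sign. With sex as a covariate in Het against WT, *Rtp4* was 0.61 at S3 and 1.61 at S1, *Samd9l* 0.047 at S1, and the members' median at S1 0.40. Without both WT embryos with few neutrophil reads at S1 (0 and 8), added after the data were seen, *Ifit3* in KO was −0.23 and *Xaf1* in Het −0.48. With the newer quasi-likelihood method *Xaf1* in Het S3 was −0.046 and the stage difference of *Rtp4* −0.0017. With 1 embryo left out, Het values at S3 ran from −0.066 to 0.25 (*Ifit2*), −0.38 to 0.56 (*Rtp4*), −0.26 to 1.01 (*Xaf1*), −0.039 to 0.60 (*Ifit1*), −0.56 to 0.54 (*Ifit3*), −0.71 to 0.94 (*Rsad2*), −0.30 to 1.08 (*Bst2*) and −0.15 to 0.57 (median). At S1 they ran from −0.99 to 0.51 (*Rtp4*), −0.44 to 0.73 (*Xaf1*) and −0.63 to 0.39 (median). In KO S1 *Ifit3* ran from −0.38 to 0.35 against WT and *Ifit2* from −0.048 to 0.23 against Het. The WT stage change ran from −0.77 to 0.31 for *Xaf1* and from −0.70 to 0.31 for the median. The stage difference of the KO effect ran from −0.067 to 1.39 (*Ifit3*), −0.44 to 0.80 (*Rsad2*), −0.91 to 0.20 (*Xaf1*), −0.012 to 0.38 (*Cmpk2*), −0.68 to 0.27 (*Ifit1*), −0.44 to 0.32 (*Rtp4*) and −0.049 to 0.41 (*Ifit2*).

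With the embryo as a replicate block, 6 members were called between the stages in WT and 0 in the stage difference of the KO effect, so the block changed no call, and *Xaf1* in the latter was 0.00282. Upper-quartile scaling moved the median of all genes between the stages from −0.0845 to −0.244, and the 6 calls kept their directions. Depth limits *Ifit3b* (0 to 14 reads), *Ifit3*, *Samd9l* at S3, and *Rsad2* and *Ifit1* at S1.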
